A study of Mus musculus with 24 samples.

Results

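Forebrain projection neurons are the glutamatergic output cells of the cerebral cortex and hippocampus. Their large dendrites carry many excitatory synapses, in which calcium entering the spine acts through calmodulin and its kinase, and their identity is set by transcription factors of the T-box, bHLH and MADS-box families. The transcripts of such cells are abundant in whole-brain RNA, so their levels there follow how much cortex and hippocampus a piece of tissue holds as well as how much each cell makes. In bulk samples fewer cells of a type and less RNA per cell cannot be told apart.

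The genes described are 10 genes of these neurons, *Nrgn*, *Camk2a*, *Hpca*, *Cck*, *Rgs4*, *Mef2c*, *Homer1*, *Tbr1*, *Neurod6* and *Slc17a7*, of 21368 named genes on the array. They were taken by name and not by a rule on measured values, but earlier results of these data were known when they were chosen. Every non-control probe whose RefSeq record belongs to one of them was kept, which gave 18 of 55681 probes. *Homer1* had 5 probes, *Tbr1*, *Camk2a*, *Hpca* and *Rgs4* had 2 each, and the other 5 genes had 1. The *Homer1* probes carry different RefSeq records, and which transcript forms the *Homer1* and *Hpca* probes detect was not settled. Each gene is represented by its brightest probe in the brain, and values without a named probe are of that one.

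The samples were brain, heart, muscle and liver of 6 male mice, hybridised to 24 single-colour arrays. The 3 mice named WT 1 to WT 3 were wild type, and the 3 named Rap1 KI/KI 1 to Rap1 KI/KI 3 (labelled MUT) carried the I312R substitution in RAP1, a telomere-binding shelterin protein, made with CRISPR/Cas9 and backcrossed to C57BL6 (C57BL/6N in the study's methods). WT 1 and Rap1 KI/KI 1 were 5 months old and the other 4 mice were 2 months old. Age and hybridisation slide coincide in the brain: the 5-month brains lay on 1 slide and the 2-month brains on another. The livers lay on slide 1, the brains on slides 1 and 2, the hearts on slides 2 and 3, and the muscles on slide 3. Tissue and slide therefore cannot be told apart in brain against muscle, heart against liver or muscle against liver, which share no slide. The same mice gave all 4 tissues, and no replicate is a pool. Levels are log2 signals from which each array's 75th percentile was subtracted, so a level of 0 is the signal of the probe at that percentile, and levels of different probes are not set against each other.

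Between 56.5% and 72.7% of probes were well above background on an array, and the number of arrays, 3 a group, limits the precision. Each tissue carried its own markers: the mean level of 12 pan-neuronal genes was 4.91 to 5.73 in the brains, that of 5 hepatocyte genes 7.92 to 8.48 in the livers, that of 5 cardiomyocyte genes 6.18 to 8.92 in the hearts and that of 5 skeletal muscle genes 8.15 to 8.62 in the muscles. The WT 1 heart gave the lowest cardiomyocyte mean, 6.18 against 8.11 or higher in the other 5, with *Myl7* at -2.41 against 5.03 to 8.33. Neuronal transcripts were raised in some muscle and heart libraries. Over the 11 pan-neuronal genes with a value on every muscle array, the mean was 1.90 in the muscle of Rap1 KI/KI 3 and -1.47 in that of Rap1 KI/KI 1, against -2.84 to -2.49 in the other 4 muscles. In the hearts it was -0.38 in Rap1 KI/KI 3 and -1.02 in Rap1 KI/KI 1, against -2.56 to -2.09, and the mean of 5 peripheral nerve genes was 1.05 in the heart of Rap1 KI/KI 3 against -0.53 to -0.10 in the other 5. *Terf2ip*, which encodes RAP1, was above background on all arrays, with genotype differences of -0.02, -0.41, -0.28 and 0.12 (log2) in brain, heart, muscle and liver (limma, adjusted p = 1, 0.66, 0.94 and 1). These values check no label, because the allele is a substitution and whether the probe covers the changed bases was not settled.

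Where transcription of these genes starts was examined in the RefSeq tables of build GRCm38.p6, which held an upstream window for 9 of the 10 genes. In the 250 bases before the start, the E-box CAGATG (either strand) was found for 4 of the 9 genes, *Mef2c*, *Nrgn*, *Rgs4* and *Cck*, and in 16.3% of all 27025 genes with a window. The E-box CACGTG was found for *Hpca* and *Cck* (6.86% of all genes), the GC box GGGCGG for *Tbr1*, *Mef2c*, *Nrgn*, *Hpca* and *Slc17a7* (35.4%), and TATAAA for *Mef2c* and *Rgs4* (14.3%). E-boxes are bound by factors of the bHLH family, to which NEUROD6 belongs. Only the forms CAGATG and CACGTG were searched, and which factor binds which form was not examined. Shown are *Rgs4* (chr1:169747643-169747892, minus strand), *Cck* (chr9:121495695-121495944, minus strand) and *Nrgn* (chr9:37552746-37552995, minus strand). They hold CAGATG and their probes read high in the brain, which does not rank the genes. *Neurod6* (chr6:55681264-55681513, minus strand) is shown for contrast, since none of the 4 motifs was found there. The *Homer1* windows, not shown, held none of them either. The sequences run 5′ to 3′ on the strand of the gene and end at the base before the start, with these motifs in capitals.
Rgs4: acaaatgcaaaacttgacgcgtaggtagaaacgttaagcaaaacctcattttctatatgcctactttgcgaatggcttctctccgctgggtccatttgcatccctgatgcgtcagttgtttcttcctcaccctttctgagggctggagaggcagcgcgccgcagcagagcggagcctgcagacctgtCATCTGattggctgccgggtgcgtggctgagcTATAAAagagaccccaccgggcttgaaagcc
Cck: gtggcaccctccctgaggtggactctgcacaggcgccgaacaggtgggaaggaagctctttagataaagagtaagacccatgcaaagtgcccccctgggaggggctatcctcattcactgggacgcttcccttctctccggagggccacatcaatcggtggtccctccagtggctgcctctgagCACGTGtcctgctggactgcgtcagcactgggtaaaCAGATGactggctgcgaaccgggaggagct
Nrgn: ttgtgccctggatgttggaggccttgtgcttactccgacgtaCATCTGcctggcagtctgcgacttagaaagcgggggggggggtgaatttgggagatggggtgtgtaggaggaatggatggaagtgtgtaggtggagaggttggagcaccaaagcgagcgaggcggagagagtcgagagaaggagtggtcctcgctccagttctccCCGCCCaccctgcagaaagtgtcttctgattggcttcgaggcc
Neurod6: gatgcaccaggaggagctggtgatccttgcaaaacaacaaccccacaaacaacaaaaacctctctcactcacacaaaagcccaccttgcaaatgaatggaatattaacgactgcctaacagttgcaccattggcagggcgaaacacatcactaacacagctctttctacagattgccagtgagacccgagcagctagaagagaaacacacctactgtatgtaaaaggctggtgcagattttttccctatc
The *Rgs4* window holds CATCTG, which is CAGATG on the other strand, 63 bases before the start and TATAAA 31 bases before it. In *Cck*, CACGTG begins 66 bases and CAGATG 30 bases before the start. In *Nrgn*, CATCTG begins 208 bases before the start. These are matches of letters and not measured sites of binding.

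In the brain, the levels of all 10 genes were lower on average in Rap1 KI/KI than in WT mice, but none passed the test. The question here was whether RAP1 mutation altered gene expression in a tissue. The median difference over the 10 genes was -0.42 on the log2 scale, against -0.05 over all 37836 probes tested. In limma with Benjamini-Hochberg adjustment, 0 of the 10 genes and 0% of all probes passed, and the adjusted p of each member was 1. An unadjusted p under 0.05 was found for 0 of the 10 representative probes and for 992 of all probes (2.62%). The 3 arrays of one genotype lay apart from the 3 of the other for 2 of the 10 genes, *Homer1* and *Rgs4*, and for 7.74% of all probes.

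**Figure D1:**
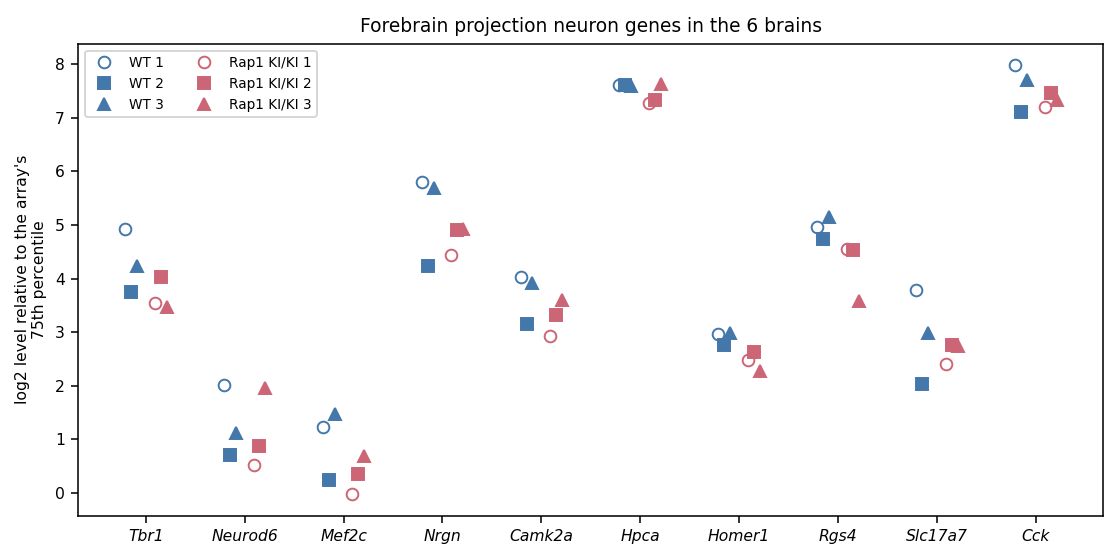
Level of each gene (log2 signal minus that of the array's 75th percentile) in the 6 brains, blue for WT and red for Rap1 KI/KI. Open circles are the 5-month mice, and squares and triangles are the 2-month mice. The red and blue symbols lie apart only for *Homer1* and *Rgs4*.

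The transcription factors are the genes that specify these neurons. *Tbr1*, a T-box factor of deep-layer and hippocampal glutamatergic neurons, had levels of 4.93, 3.76 and 4.23 in WT 1 to WT 3, and of 3.54, 4.03 and 3.48 in Rap1 KI/KI 1 to 3. The genotypes overlapped through WT 2 and Rap1 KI/KI 2, and the difference was -0.62 (SE 0.34). The second *Tbr1* probe, much dimmer in these brains, read -2.14, -2.82 and -2.44 in the WT and -3.73, -3.28 and -3.60 in the Rap1 KI/KI brains. On that probe the groups lay apart, with a difference of -1.07 (SE 0.24; limma, unadjusted p = 0.00401, adjusted p = 1).

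*Neurod6*, a bHLH factor of cortical and hippocampal pyramidal cells, read 2.02, 0.70 and 1.12 in the WT and 0.52, 0.87 and 1.95 in the Rap1 KI/KI brains. Its highest values were in 1 mouse of each genotype, WT 1 and Rap1 KI/KI 3, and the difference of -0.17 had a 95% interval of -1.35 to 1.02. *Mef2c*, a MADS-box factor of neurons as well as of muscle and heart, read 1.23, 0.25 and 1.48 against -0.02, 0.35 and 0.70. WT 2 lay among the Rap1 KI/KI brains here, and the difference was -0.64 (SE 0.38).

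Next are the proteins of calcium and calmodulin signalling. *Nrgn* encodes neurogranin, which holds calmodulin in dendritic spines. Its levels were 5.81, 4.23 and 5.69 in the WT and 4.43, 4.91 and 4.92 in the Rap1 KI/KI brains, so that WT 2 was the lowest of the 6. The difference was -0.49 (SE 0.45). *Camk2a*, the alpha subunit of the calmodulin-dependent kinase of these synapses, read 4.02, 3.14 and 3.92 against 2.93, 3.32 and 3.60, a difference of -0.41 (SE 0.31), with WT 2 again below 2 of the Rap1 KI/KI brains. The second *Camk2a* probe differed by -0.49 (SE 0.22). *Hpca*, which encodes the calcium sensor hippocalcin, varied least between brains, with 7.62, 7.61 and 7.59 in the WT and 7.28, 7.34 and 7.63 in the Rap1 KI/KI mice. Its highest brain was Rap1 KI/KI 3, and the difference was -0.19 (SE 0.17). The second *Hpca* probe hardly differed between genotypes (-0.02, SE 0.29), and Rap1 KI/KI 3 was again the highest.

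The scaffold and the G-protein regulator were the members whose genotypes did not overlap. *Homer1* encodes a postsynaptic scaffold that links metabotropic glutamate receptors to calcium stores. Its levels were 2.96, 2.76 and 2.98 in the WT and 2.48, 2.64 and 2.28 in the Rap1 KI/KI brains. Every WT brain was above every Rap1 KI/KI brain, by a difference of -0.43 (SE 0.18; limma, unadjusted p = 0.0512, adjusted p = 1). The other 4 *Homer1* probes also lay apart in the same direction, with differences of -0.85, -0.65, -0.45 and -1.07 and unadjusted p-values of 0.00861, 0.0161, 0.0401 and 0.0289 (limma, adjusted p = 1 for each), but probes of 1 gene on the same arrays are not replicates.

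*Rgs4*, which speeds the switching off of G proteins, read 4.96, 4.73 and 5.15 in the WT and 4.55, 4.54 and 3.58 in the Rap1 KI/KI brains. Rap1 KI/KI 3 was the lowest by about 1 log2 unit, and the difference was -0.72 (SE 0.31; limma, unadjusted p = 0.0586, adjusted p = 1). The second *Rgs4* probe lay apart too, by -0.60 (SE 0.27). Without Rap1 KI/KI 3 the *Rgs4* difference was -0.40 and that of *Homer1* was -0.34.

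The transmitter genes overlapped between genotypes. *Slc17a7*, which encodes the vesicular glutamate transporter VGLUT1, read 3.79, 2.03 and 2.99 in the WT and 2.41, 2.77 and 2.74 in the Rap1 KI/KI brains, a difference of -0.30 (SE 0.44). Both the highest and the lowest of its 6 values were WT. *Cck*, the neuropeptide cholecystokinin, which interneurons make as well, read 7.98, 7.12 and 7.71 against 7.20, 7.46 and 7.34, a difference of -0.27 (SE 0.26).

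Some brains stood high or low for most of the genes, so the 10 differences are not separate pieces of evidence. Over the 6 brains, 44 of 45 pairs of genes had a Pearson r above 0 (median 0.66). The mean of the 10 genes overlapped between genotypes, at 3.63 in WT 2 against 3.82 in Rap1 KI/KI 2 and in Rap1 KI/KI 3. Relative to the mean of the 6 brains, WT 1 was above for 10 of 10 genes and the highest for 6, and WT 3 was above for 9. Rap1 KI/KI 1 was below for all 10 and the lowest for 4. WT 2 was the lowest for 3 genes (*Nrgn*, *Slc17a7* and *Cck*), and Rap1 KI/KI 3 was the lowest for 3 (*Tbr1*, *Homer1* and *Rgs4*) and the highest for *Hpca*.

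Most of the mean difference lay between the 2 mice on the first slide, which were also the 5-month mice. There Rap1 KI/KI 1 was below WT 1 for 10 of 10 genes, by a median of -1.17 (range -1.50 to -0.34). On the second slide, among the 2-month mice, the Rap1 KI/KI mean was below the WT mean for 8 of 10, by a median of -0.10 (range -0.88 to 0.50). *Homer1* (-0.41) and *Rgs4* (-0.88) kept the genotypes apart on that slide, while *Neurod6* (0.50) and *Slc17a7* (0.25) were higher in the Rap1 KI/KI mice. When single mice were left out, the median difference ran from -0.72 without WT 2 to -0.23 without WT 1, and it was -0.28 without either WT 3 or Rap1 KI/KI 1. With slide as a block 0 members passed. Age and slide cannot be told apart in the brain.

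**Figure D2:**
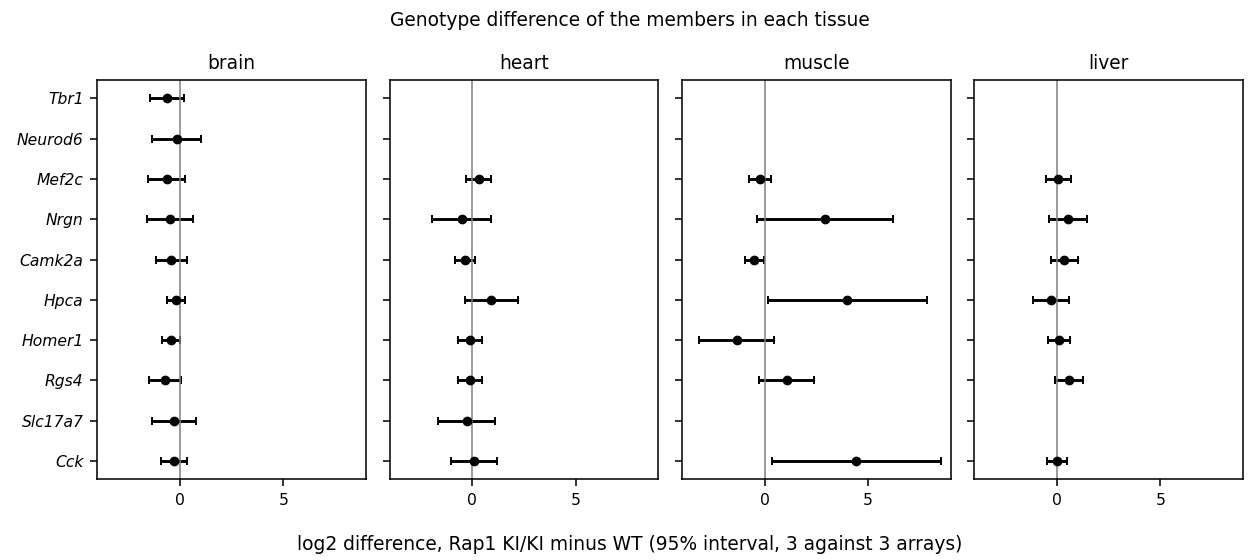
Difference of each gene (log2, Rap1 KI/KI minus WT) with its 95% interval in the 4 tissues, from 3 against 3 arrays. Genes not tested in a tissue have no symbol. In the brain all 10 points lie below 0, and in the muscle the intervals of *Hpca* and *Cck* reach above 7.

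Genes of other brain regions and cell types differed between the same 6 brains. The mean of 9 cerebellar genes was 0.77, -0.47 and -2.36 in WT 1 to 3 and 2.89, 1.63 and -1.78 in Rap1 KI/KI 1 to 3, and 9 of 9 were higher on average in Rap1 KI/KI. The granule cell receptor gene *Gabra6* ranged from -8.33 in WT 3 to 3.00 in Rap1 KI/KI 1, and the Purkinje cell gene *Pcp2* was 6.36 in Rap1 KI/KI 1 but below 0 in WT 3 and Rap1 KI/KI 3. The brain of Rap1 KI/KI 1, in which all 10 projection neuron genes were below their mean, had the highest cerebellar level, and that of WT 3, with 9 of the 10 genes above their mean, had the lowest. The other brains did not all follow that order. WT 1 had the highest mean of the 10 genes (4.53) and the third highest cerebellar mean, and Rap1 KI/KI 3 had a mean of 3.82 for the 10 genes and the second lowest cerebellar mean.

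The mean of 9 striatal genes was 2.19, 3.61 and 2.25 in the WT and 3.17, 2.59 and 0.61 in the Rap1 KI/KI brains, with 9 of 9 lower on average in Rap1 KI/KI. WT 2, the lowest brain for *Nrgn*, *Slc17a7* and *Cck*, was the highest here, and Rap1 KI/KI 3, the lowest for *Rgs4*, was the lowest. The astrocyte genes (6 of 7), oligodendrocyte genes (7 of 7), microglia genes (5 of 5) and choroid plexus genes (5 of 5) were higher on average in Rap1 KI/KI. Only the astrocyte means did not overlap (3.46 or lower in WT, 3.60 or higher in Rap1 KI/KI). All 5 microglia genes were highest in Rap1 KI/KI 3, and the microglia mean of Rap1 KI/KI 1 (2.27) was below that of WT 1 (2.66). The oligodendrocyte mean of WT 2 (4.61) was above those of Rap1 KI/KI 1 (4.53) and Rap1 KI/KI 3 (4.54). The choroid plexus mean of WT 2 (1.42) was above that of Rap1 KI/KI 3 (1.41). The hepatocyte mean was -2.78 in WT 1 against -5.82 to -5.17 in the other brains. None of the genes in these lists passed the test in the brain. The part of regional and cellular composition in the differences of the 10 genes was not tested.

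**Figure D3:**
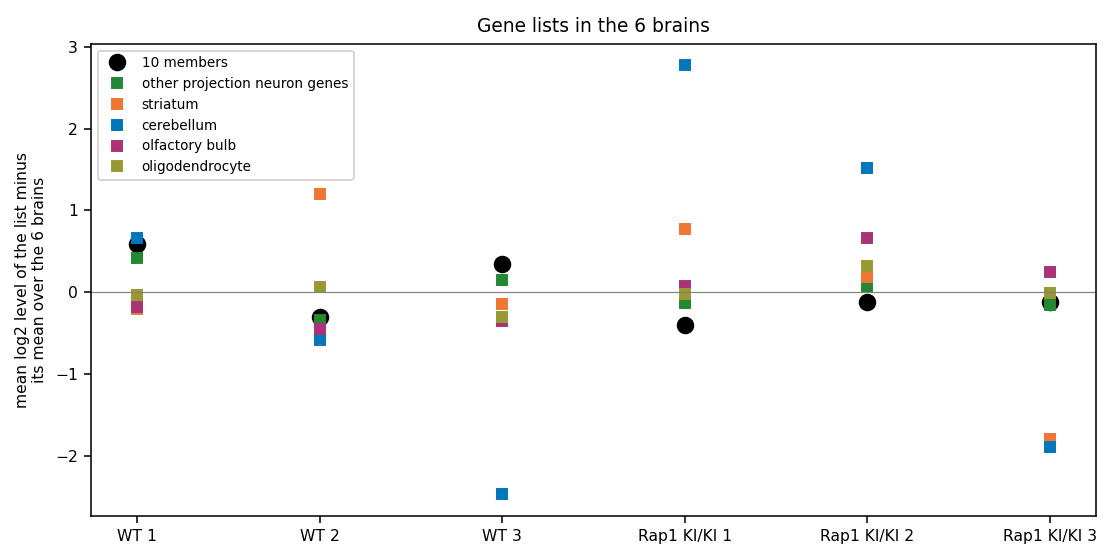
Mean log2 level of each gene list minus its mean over the 6 brains, one column of symbols per brain. Black circles are the 10 projection neuron genes, squares the other lists. The cerebellar list spans about 5 log2 units and the 10 genes about 1.

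Other genes of projection neurons were taken from a list of 30, of which 29 were measured. None of them passed the test in the brain, 23 were lower and 6 higher on average in Rap1 KI/KI, and their median difference was -0.21. The brightest were *Ppp3ca*, a calcineurin catalytic subunit, with a difference of 0.04, *Itpka*, an inositol trisphosphate kinase of dendritic spines (-0.13), *Lmo4*, a LIM-domain transcriptional cofactor (-0.30), and *Icam5*, a dendritic adhesion protein (-0.18). Of 21 relatives and partners of the 10 genes, 18 were lower and 3 higher, none passing. Among them *Camk2b*, the beta subunit of the kinase, differed by -0.06. Of 14 inhibitory neuron genes 11 were lower, and of 12 pan-neuronal genes 8 were lower.

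Across tissues, the genes of WT mice fell into those detected only in the brain and those that other tissues also carried. There, limma called 9 of the 10 genes higher in brain than in heart (24.8% of all probes were), 7 higher in brain than in muscle (25.1%) and 10 higher in brain than in liver (29.5%). The 3 comparisons share the brain arrays. The genes were chosen as neuronal and each probe as the brightest of its gene in the brain, so these counts are a description. The counts include genes whose readings outside the brain lay below background.

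**Figure D4:**
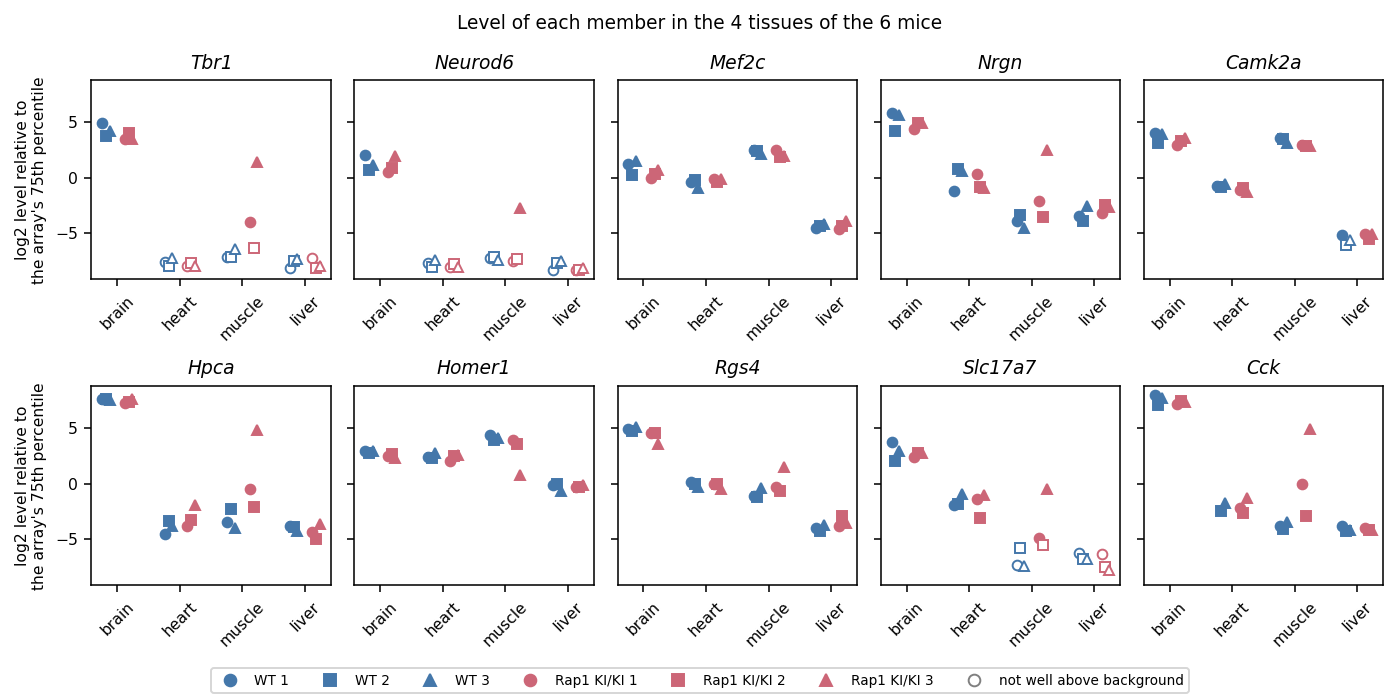
Level of each gene (log2 signal minus that of the array's 75th percentile) in 4 tissues of the 6 mice, with a panel per gene. Filled symbols are well above background and open ones are not. *Tbr1* and *Neurod6* are filled only in the brain and in the muscle of Rap1 KI/KI 3 and, for *Tbr1*, Rap1 KI/KI 1, whereas *Camk2a*, *Homer1* and *Mef2c* are high in muscle.

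*Tbr1* and *Neurod6* were not well above background in any WT heart, muscle or liver. Against the detection limit of each array, *Tbr1* was at least 921-fold higher in WT brain than in heart, at least 687-fold higher than in muscle and at least 1250-fold higher than in liver. For *Neurod6* the brain was higher by at least 113-fold over heart, by at least 84.6-fold over muscle and by at least 154-fold over liver. Both genes passed the filter through the brain arrays alone, so no p-value is given for these bounds. *Slc17a7* was below background in WT muscle and liver as well, lower than in brain by at least 266-fold in muscle and by at least 483-fold in liver, but was above it in the hearts, at -1.94, -1.84 and -0.91. Its brain level was 22.6-fold that of the WT heart (adjusted p = 0.00032).

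*Hpca* and *Cck* were detected outside the brain only far below their brain levels. The representative *Hpca* probe had WT means of 7.61 ± 0.01 in brain, -3.92 ± 0.61 in heart, -3.24 ± 0.89 in muscle and -4.01 ± 0.27 in liver (SD, n = 3). No pair of the other 3 tissues passed the test (adjusted p = 0.56 to 0.95). The second *Hpca* probe disagreed: its WT means were 4.52 in brain and 5.20 in liver, a difference that did not pass (adjusted p = 0.091), so the level of the gene in liver depends on the probe read. *Cck* averaged 7.60 in WT brain, -2.12 in heart over 2 arrays, -3.78 in muscle and -4.09 in liver. The *Cck* spot of the WT 1 heart was marked an outlier by the scanner software and was dropped from every value.

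*Nrgn* and *Rgs4* were intermediate. *Nrgn* averaged 5.24 in WT brain, 0.08 in heart, -3.94 in muscle and -3.27 in liver, and its heart level ranged from -1.18 in WT 1 to 0.84 in WT 2. The heart was above muscle (16.3-fold, adjusted p = 0.0035) and liver (10.2-fold, adjusted p = 0.0071), which were not told apart (adjusted p = 0.58). *Rgs4* averaged 4.94 in WT brain, -0.06 in heart, -0.91 in muscle and -3.997 in liver. Heart and muscle were not told apart (adjusted p = 0.14), and both were above liver.

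The other 3 genes were not at their highest in the brain, or shared that place. *Camk2a* read 4.02, 3.14 and 3.92 in WT brains and 3.57, 3.46 and 3.14 in WT muscles, an overlap with a difference of 0.31 (SE 0.25; adjusted p = 0.31). Under quantile normalization that difference was 0.94 and passed (adjusted p = 0.0042). *Camk2a* was 21.4-fold lower in heart than in brain and was above background on this probe in 1 of 3 WT livers. The second *Camk2a* probe was above background in all 3, at a mean of -3.33. *Homer1* was higher in muscle than in brain, with 4.35, 3.93 and 4.12 in WT muscles, a brain-minus-muscle difference of -1.23 (SE 0.49; limma, adjusted p = 0.037). That call was lost without any one of the 3 WT mice (adjusted p = 0.12 to 0.16) and under quantile normalization, where the difference was -0.66 (adjusted p = 0.22). Of the other 4 *Homer1* probes, 3 were called in the same direction (adjusted p of 0.017 or lower) and 1 was not (difference -0.14, adjusted p = 0.71). Its representative probe did not separate brain from heart (difference 0.40, adjusted p = 0.51), whereas 3 of the other 4 probes did (1.63, 0.87 and 2.07, adjusted p of 0.0021 or lower). *Mef2c* was highest in muscle, with WT means of 2.36 in muscle, 0.98 in brain, -0.50 in heart and -4.36 in liver, and each of these steps passed the test.

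Outside the brain, limma called 5 of the 10 genes in WT heart against muscle (31.1% of all probes in either direction), 6 in heart against liver (52.3%) and 4 in muscle against liver (56.7%). *Nrgn* and *Slc17a7* were higher in heart than in muscle, and *Mef2c*, *Camk2a* and *Homer1* were lower. All 6 genes called between heart and liver were higher in heart, and the 4 called between muscle and liver, *Mef2c*, *Camk2a*, *Homer1* and *Rgs4*, were higher in muscle.

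By genotype, the muscle held the widest spread. The representative probes of 7 genes were tested there, 0 passed, and 0% of all 32382 probes did (limma, lowest adjusted p = 0.94, 802 probes with an unadjusted p under 0.05). The genotypes did not overlap for 4 of the 7 tested genes, *Hpca* and *Cck* above WT and *Camk2a* and *Homer1* below, and for 6.45% of all probes.

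*Cck* read -3.84, -4.07 and -3.43 in the WT muscles and -0.01, -2.94 and 4.91 in those of Rap1 KI/KI 1 to 3. *Hpca* read -3.41, -2.28 and -4.04 against -0.46, -2.09 and 4.84, and *Nrgn* -3.91, -3.38 and -4.54 against -2.05, -3.53 and 2.47. In each case Rap1 KI/KI 3 was the highest, Rap1 KI/KI 1 the second, and Rap1 KI/KI 2 close to the WT mice. Relative to the WT mean and on these probes, the muscle of Rap1 KI/KI 3 carried 411-fold more *Cck*, 271-fold more *Hpca* and 85.1-fold more *Nrgn* signal, and that of Rap1 KI/KI 1 carried 13.6-fold, 6.85-fold and 3.72-fold more. The second *Hpca* probe did not follow: it read 2.15, 1.77 and 1.48 in the WT muscles and 1.53, 1.56 and 1.44 in the Rap1 KI/KI muscles, with Rap1 KI/KI 3 the lowest of the 6 and a difference of -0.29 (SE 0.23).

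The genes that WT muscle lacked appeared in the same library. *Tbr1* was above background in the muscle of Rap1 KI/KI 3 (1.44) and Rap1 KI/KI 1 (-3.99) and in no WT muscle. *Slc17a7* was above background in the same 2 muscles (-0.44 and -4.94), and *Neurod6* in that of Rap1 KI/KI 3 alone (-2.70). These 3 genes were above background on fewer than 3 of the 6 muscle arrays and were not tested. *Rgs4* was 1.48 in Rap1 KI/KI 3 against -1.22 to -0.33 in the other 5 muscles.

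**Figure D5:**
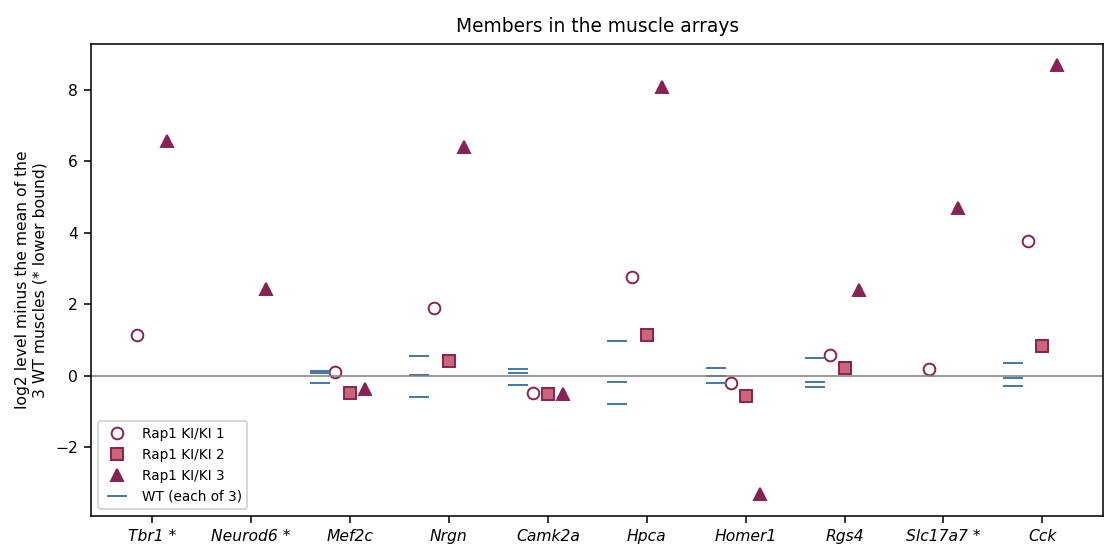
Level of each gene in the Rap1 KI/KI muscles (log2) minus the mean of the 3 WT muscles, with each WT muscle as a blue dash. For the 3 genes with an asterisk no WT muscle was above background, so the detection limit stands for the WT mean, the symbols are lower bounds, and only arrays above background are drawn. Rap1 KI/KI 3 (triangles) lies above 6 for *Tbr1*, *Nrgn*, *Hpca* and *Cck* and below -3 for *Homer1*.

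The rest of the projection neuron list moved with these genes: 23 of its 29 measured genes were highest in the muscle of Rap1 KI/KI 3, and the list mean was -0.11 there, -3.03 in Rap1 KI/KI 1 and -3.90 to -3.69 in the other 4 muscles. The 11 pan-neuronal genes with a value on all 6 muscle arrays were each highest in Rap1 KI/KI 3 too. The oligodendrocyte mean was 0.65 there against -2.70 to -2.04, and the astrocyte mean 1.53 against -2.08 to -1.07. The cerebellar mean was -3.72, near the -4.59 to -4.10 of the other muscles, and the skeletal muscle mean, 8.62, was not below the other 5. The part of brain transcripts in the muscle libraries in these differences was not tested.

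The genotype differences in muscle were 4.43 for *Cck* (SE 1.74; limma, unadjusted p = 0.0379), 4.00 for *Hpca* (SE 1.63; unadjusted p = 0.0434) and 2.91 for *Nrgn* (SE 1.39; unadjusted p = 0.0745), each with an adjusted p of 0.94. Without the muscle of Rap1 KI/KI 3 they were 2.30 for *Cck*, 1.96 for *Hpca* and 1.15 for *Nrgn*. Without those of Rap1 KI/KI 1 and Rap1 KI/KI 3, which leaves 1 Rap1 KI/KI muscle assumed to vary like the WT, they were 0.83, 1.15 and 0.41.

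*Camk2a* went the other way, with 3.57, 3.46 and 3.14 in the WT muscles and 2.92, 2.89 and 2.87 in the Rap1 KI/KI muscles. The 3 Rap1 KI/KI values lay within 0.1 of each other and below all WT values, and the difference was -0.50 (SE 0.20; limma, unadjusted p = 0.0397, adjusted p = 0.94). Without the muscles of Rap1 KI/KI 1 and Rap1 KI/KI 3 it was -0.50 as well. The second *Camk2a* probe overlapped, with a difference of -0.37 (SE 0.25).

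*Homer1* read 4.35, 3.93 and 4.12 in the WT muscles and 3.92, 3.58 and 0.82 in the Rap1 KI/KI muscles. The value of Rap1 KI/KI 3 stood about 3 log2 units below all others on this probe. The other 4 *Homer1* probes did not show a gap of that size: they differed by -0.40, -0.35, -0.35 and -0.38 between genotypes, and that of the representative probe was -0.38 without Rap1 KI/KI 3. *Mef2c* overlapped (difference -0.24, SE 0.23).

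In heart and liver no member passed between genotypes. In the heart 8 genes were tested, 0 passed, as did 0% of all 34848 probes (limma, lowest adjusted p = 0.65, 2617 probes with an unadjusted p under 0.05), and differences ranged from -0.52 for *Nrgn* to 0.92 for *Hpca*. Only *Camk2a*, at -0.77, -0.81 and -0.59 in WT and -1.12, -0.88 and -1.27 in Rap1 KI/KI hearts, did not overlap, as did 14.7% of all probes, and the second *Camk2a* probe overlapped (difference -0.07). The second *Hpca* probe overlapped as well, with a difference of -0.21. The part of neuronal and nerve transcripts in the heart values was not tested. In the liver 7 genes were tested, 0 passed, as did 0% of all 35240 probes (limma, lowest adjusted p = 1, 750 probes with an unadjusted p under 0.05). Differences there ranged from -0.30 for *Hpca* to 0.58 for *Rgs4*, and no representative probe separated the genotypes, whereas 5.85% of all probes did. Of the other probes, 1 of *Homer1* lay apart, lower in Rap1 KI/KI (difference -0.28).

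Whether the genotype difference varied between the tissues was tested with the interaction of genotype and tissue in all 24 arrays. None of the 10 genes passed, and 0% of all 42463 probes did. An unadjusted p under 0.05 was found for 5 genes, *Cck* (0.0236), *Slc17a7* (0.0255), *Tbr1* (0.0286), *Hpca* (0.0348) and *Rgs4* (0.0373), each with an adjusted p of 1 (limma F test), and for 1243 of all probes (2.93%). The muscle array of Rap1 KI/KI 3 is among those fitted, and its part in these values was not tested. *Tbr1* entered this fit through the brain alone, being above background on 2 muscle arrays and on no heart or liver array. *Slc17a7* was above background on 2 muscle arrays and on no liver array. The interaction values of both genes therefore rest in part on readings below background.

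Over the 24 arrays, the mean of the 10 genes ran from 3.53 to 4.53 in the brains, from -2.41 to -1.96 in the hearts (9 genes in that of WT 1) and from -4.88 to -4.67 in the livers. In the muscles it was 1.77 in Rap1 KI/KI 3, -0.995 in Rap1 KI/KI 1 and -2.44 to -2.01 in the others. The genes outside the 10 whose pattern was most like this mean were *Cnksr2*, a scaffold of the postsynaptic density (Pearson r = 0.993 over 24 arrays), *Dlg4*, which encodes PSD-95 (0.991), *Slc8a2*, a sodium-calcium exchanger (0.991), *Begain*, a partner of PSD-95 (0.991), and *Jph4*, a junctophilin (0.99). The arrays share 4 tissues, so these values mainly describe the contrast of brain with the rest.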

How the data were processed

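RNA of 4 tissues from 6 mice was labelled with Cy3 and hybridised to 3 slides of single-colour Agilent arrays, and the deposited scanner intensity files came from Feature Extraction 12.0.3.1. The intensity column gProcessedSignal had been background-corrected by that software before it was deposited. A second table, which the authors deposited, gives every spot a score, its log signal minus the array mean over the SD, and served as an alternative. Outlier-flagged spots and 3671 control spots were left out, spots of a probe were averaged, and log2 intensity minus the array's 75th percentile was taken. Probe names came from RefSeq records (28331 of 55681 probes matched).

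Testing required a signal well over background in 3 or more of a tissue's 6 arrays. Genotypes were compared within each tissue, and WT tissues and the interaction in a fit of 8 groups, by two-sided tests in limma 3.58.1 (R 4.3.3; Benjamini-Hochberg over all probes, threshold 0.05). A bound for an undetected gene took, per array, the dimmest signal that still counted as well above background. The 10 genes, the gene lists and the tests were chosen with earlier results of these data known. The rule named every probe of the 10 genes and at most 4 of the brightest genes of every other list. It also named the 5 genes most like the members' mean. *Gabra6* and *Myl7* were named after their values were seen. Some genes are not reported here.

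The fits were tested on simulated data with 200 changed probes. In the brain genotype fit, 2% of probes changed by 1 log2 unit and 46% of those changed by 2 were recovered. Smaller changes were not simulated, and 2.9% of the calls were false. In the fit of WT brain against heart, 18% and 62% were recovered, and 6.6% of the calls were false. The alternatives were another normalization, background correction, filter or fit, a replicate block, and each mouse left out. Replicate numbers are the animals' own, so they pair the tissues of a mouse: over 36 pairs of arrays the deviations from the group means correlated between -0.22 and 0.26 (median 0.047).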

Additional observations from a re-analysis of the deposited data

How the results depend on the processing

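The count of members passing between genotypes was 0 in every tissue, and 0 in the interaction, under all alternatives run: quantile normalization, normexp, the z-scores of the series table, both filters, a trended robust fit, the mean of all probes, all 24 arrays, slide, age and each mouse left out. In the brain all 10 members stayed lower under these settings except without WT 1, where *Neurod6* (0.20) and *Slc17a7* (0.13) turned, leaving 8, and without Rap1 KI/KI 1, where *Neurod6* (0.13) did, leaving 9. The *Neurod6* difference ranged from -0.59 to 0.20 and that of *Slc17a7* from -0.75 to 0.13 over the mice left out. In heart and liver the direction turned for 7 of 127 and 12 of 104 member values, and in muscle for 0 of 112.

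With mouse as a replicate block, 9 members passed in WT brain against heart, 9 against muscle, 10 against liver, and 5, 6 and 4 in the other pairs, the same counts as without the block, and 0 in the interaction. The 5 members called in WT heart against muscle became 3 without WT 3 (3 to 7 over the mice left out). Muscle against liver gave 9 in place of 4 in the Rap1 KI/KI mice, and 8 without the muscle of Rap1 KI/KI 3; that last setting, chosen after seeing the data, gave 7 in heart against muscle. *Camk2a*, brain minus muscle, turned to -0.080 with the mean of all its probes, and was called under quantile normalization (0.94, adjusted p = 0.0042). The *Homer1* call in the same pair was lost under quantile normalization (-0.66, adjusted p = 0.22), with the z-scores (-0.25, 0.072), without WT 1, 2 or 3 (-1.28 to -1.16, 0.12 to 0.16) and without Rap1 KI/KI 2 (-1.23, 0.05). The cause of these changes was not tested. The spread of the pooled fit includes the muscle of Rap1 KI/KI 3. With 3 arrays a group, the 95% interval of *Neurod6* in the brain ran from -1.35 to 1.02.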
